A study of Mus musculus with 42 samples.

Results

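Genes for enzymes and receptors of the eicosanoid and resolvin pathways were followed in mouse liver. The 10 genes, of 19732 named genes listed in at least 1 of the 6 deposited comparison tables, were chosen by name: the receptor genes Ltb4r1 and Fpr2, the 5-lipoxygenase arm genes Alox5, Alox5ap, Lta4h and Ltc4s, the cyclooxygenase genes Ptgs1 and Ptgs2, and the genes of the inactivating enzymes Ephx2 and Hpgd. Whole livers came from 42 male C57BL/6J mice in 6 groups of 7. WT lean and ChemR23 KO lean mice ate a diet with 10% of kcal from fat, and WT obese and KO obese mice a lard-based high fat diet with 60%. Diets began at 6 weeks of age and lasted 15 weeks. WT obese+RvE1 and KO obese+RvE1 mice had the high fat diet and 300 ng of resolvin E1 (RvE1) injected intraperitoneally on 4 consecutive days, with livers taken on day 5 after a fast of at least 4 hours. The other 4 groups, lean mice included, received an ethanol and PBS vehicle. KO mice carried a CRISPR/Cas9-made knockout of ChemR23, the receptor encoded by Cmklr1, and WT mice were littermates.

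Eicosanoids are signalling lipids made from arachidonic acid, which phospholipases free from membranes. Cyclooxygenases turn it into prostaglandins and thromboxane, whereas 5-lipoxygenase with its helper protein FLAP turns it into leukotrienes, which draw in and activate leukocytes. Resolvins are made from omega-3 fatty acids by related enzymes and limit inflammation, and RvE1 acts through ChemR23 and also binds the leukotriene B4 receptor BLT1, which Ltb4r1 encodes. In liver, Kupffer cells, the resident macrophages, are a known source of eicosanoids, while hepatocytes are rich in enzymes that break lipid mediators down.

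Each mouse had between 15992525 and 43841120 reads on the listed genes (median 24298289). Values were normalized counts (reads divided by a DESeq2 size factor), which were scaled separately in each table, so groups were compared only within a table. Genes were tested on log2(normalized count + 1) with limma where their mean over 14 mice was at least 5, and a gene was called at a Benjamini-Hochberg adjusted p under 0.1 over all genes tested. Cmklr1 was measured first as a check of the genotype labels. In lean livers it ranged from 9.72 to 22.6 normalized counts in KO mice and from 40.8 to 114 in WT mice, and in obese livers from 5.08 to 23.2 and from 33.3 to 102. The groups did not overlap in either case, and the KO level was 21.4% of WT in lean and 24.3% in obese livers on the fitted scale (adjusted p = 4.9e-04 and 0.034, and 0.0018 and 0.15 with the identifier block described for Fpr2). Hepatocyte markers (8 of 8 listed, among them Alb and Apoa1) summed to between 1022620 and 2073790 normalized counts per mouse, and none was called in any comparison.

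Levels of the 10 genes were compared with each other in the KO obese vs WT obese table, the one that listed them all, as normalized counts per kb of exon over 14 mice. Ephx2, soluble epoxide hydrolase, which turns fatty acid epoxides into diols, had the highest level at 4211 ± 831 per kb (SD, n = 14). Hpgd, 15-hydroxyprostaglandin dehydrogenase, which begins prostaglandin breakdown and also oxidizes resolvins, followed at 2058 ± 419. The ranges of this pair did not overlap each other or those of the remaining genes. Ptgs1, the cyclooxygenase made constitutively in many cells, stood at 54.7 ± 11.2 and Lta4h, the hydrolase that forms leukotriene B4, at 39.3 ± 4.54. The length of a gene was that of all its annotated exons joined, 3884 bases for Ptgs1 and 6102 for Lta4h. Before division by length Lta4h had the higher mean (240 normalized counts against 212), so the order of these genes depends on the length used. Ltb4r1 (19.5 ± 7.21), Alox5ap (17.4 ± 7.83), Fpr2 (13.3 ± 4.63) and Ltc4s (9.29 ± 3.91) came next. From Ptgs1 down to Ltc4s, each gene's range overlapped that of the next. Alox5, 5-lipoxygenase itself, was at 1.12 ± 0.74 per kb and Ptgs2, the inducible cyclooxygenase, at 0.20 ± 0.27.

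**Figure D1:**
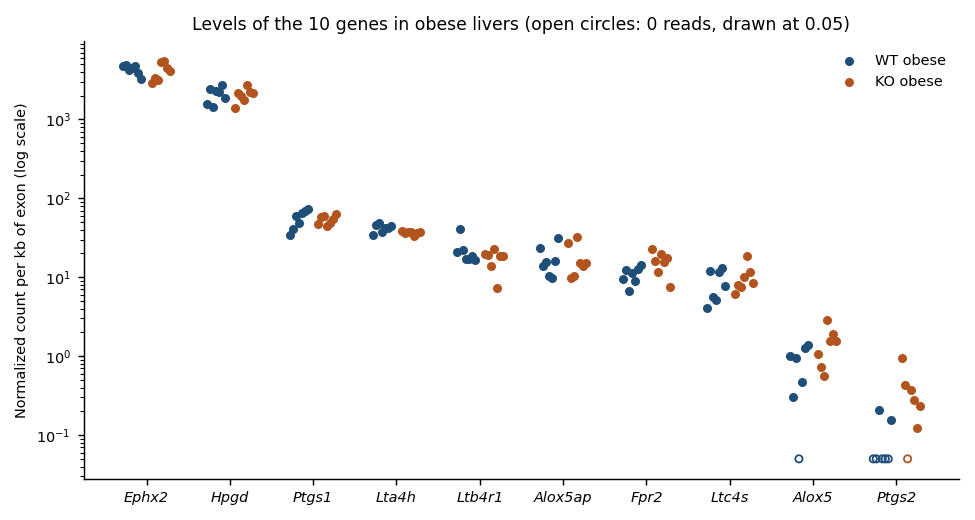
Normalized counts per kb of exon on a log axis for each of the 10 genes in the 7 WT obese (blue) and 7 KO obese (orange) livers, 1 point per mouse, with open circles for 0 reads drawn at 0.05. Ephx2 and Hpgd sit above the other genes, and Ptgs2 had no reads in 5 of the 7 WT obese mice.

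Among these genes, those called between groups were Ptgs1, Fpr2 and Hpgd. Ptgs1 and Fpr2 were higher in KO lean than in WT lean livers and lower in KO obese than in KO lean livers. Hpgd was higher in WT obese than in WT lean livers. Over all genes tested, 16.3%, 24.1% and 6.27% were called in these comparisons, in that order. With the identifier block described for Fpr2, only Ptgs1 in KO obese vs KO lean livers stayed called (adjusted p = 0.032). No identifier number was shared by both groups of any of these comparisons, so differences between numbers and between groups cannot be fully told apart. No member was called between obese KO and WT livers or after RvE1 in either genotype.

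**Figure D2:**
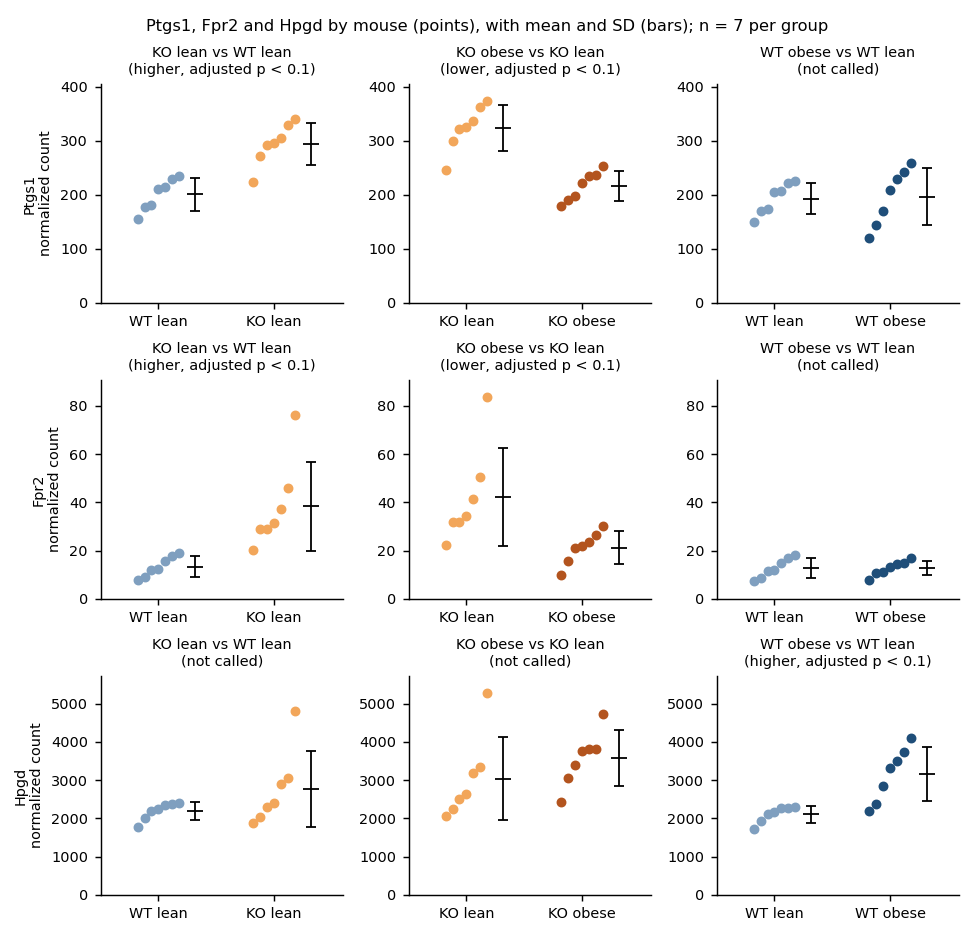
Normalized counts of Ptgs1, Fpr2 and Hpgd (rows) in 3 comparisons (columns), 1 point per mouse with the mean and SD beside each group of 7; each column has the scale of its own table. The 7 KO lean mice lie above the 7 WT lean mice for Fpr2, and 6 of 7 do for Ptgs1; for Hpgd, 6 of 7 WT obese mice lie above the WT lean mice.

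Fpr2 encodes a formyl peptide receptor of phagocytes that binds lipoxin A4, resolvin D1 and annexin A1. In the table of lean mice it ranged from 7.69 to 19.1 normalized counts (median 12.4) in WT and from 20.4 to 76.1 (median 31.3) in KO livers. Every KO lean mouse was thus above every WT lean mouse, although the highest KO lean mouse stood well above the others. The difference was 1.40 ± 0.27 (log2, SE), or 2.64-fold (adjusted p = 0.030). Of 13031 genes tested in lean livers, 0.744% had groups that did not overlap. With mice that share the number opening their identifier treated as a block, the adjusted p was 0.14, the highest of 10 alternative settings (lowest 3.3e-04). It was 0.10 to 0.11 without the mice of number 21 or those of number 26, each left out in turn.

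In KO mice on the high fat diet Fpr2 was lower again. KO lean livers held 22.5 to 83.9 normalized counts (median 34.5) and KO obese livers 10.0 to 30.2 (median 21.7) in their shared table. The groups overlapped, with 4 of 7 KO obese mice below the lowest KO lean mouse. The log2 difference was -0.91 ± 0.28 (SE, adjusted p = 0.038). It was no longer called with the block (adjusted p = 0.15) or with libraries scaled to equal totals (0.10), and the lowest adjusted p over 10 alternatives was 0.010. Without the 3 mice whose identifier opens with 31 it was 0.19. WT mice gave no such difference between diets, with 7.45 to 18.3 normalized counts in WT lean and 7.83 to 16.7 in WT obese livers and a 95% interval of the log2 difference from -0.50 to 0.52. The diet difference in KO minus that in WT was -0.93 ± 0.37 (log2, SE), with an adjusted p of 0.18, so a difference between genotypes in the response was not called for Fpr2. In that interaction 0 of 8 members tested was called, against 0.0071% of 14093 genes. With libraries weighted the adjusted p of Fpr2 was 0.085 and the highest over 9 alternatives 0.61.

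Fpr2 rested on 7 to 82 reads per mouse (median 18.5), and 48 bases of its exons are shared with Fpr3. It lies on chromosome 17 (chr17:17887824-17893952, plus strand, GRCm38).

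Ptgs1 showed the same 2 differences at smaller size and higher counts. In lean livers it ranged from 156 to 234 normalized counts (median 211) in WT and from 224 to 340 (median 295) in KO mice. One KO lean mouse lay within the WT range and the other 6 above it. The log2 difference was 0.55 ± 0.12 (SE), or 1.47-fold (adjusted p = 0.034). It was not called with the block (adjusted p = 0.14) or at equal totals (0.10), while the lowest adjusted p over 10 alternatives was 0.0013. Without the mice of identifier number 21, 26 or 9, each left out in turn, the adjusted p reached up to 0.13.

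In KO mice the high fat diet went with less Ptgs1. KO lean livers had 246 to 374 normalized counts (median 325) and KO obese livers 180 to 253 (median 222), and 6 of 7 KO obese mice were below every KO lean mouse. The log2 difference was -0.58 ± 0.12 (SE, adjusted p = 0.0064), a fall of 33.0%. It stayed called under each of 10 alternative fits, the block included (0.032), with a highest adjusted p of 0.088 at equal totals. At 1.49-fold it was not kept when a fold above 1.5 was required as well. In WT mice the corresponding values were 149 to 225 (median 204) in lean and 120 to 260 (median 209) in obese livers, and the 95% interval of the difference ran from -0.37 to 0.35. The KO minus WT difference of the diet effects was -0.57 ± 0.20 (SE, unadjusted p = 0.0097, adjusted p = 0.16). It was called when libraries were weighted (adjusted p = 0.019) and with DESeq2 (0.064), and not with the other 8 alternatives, which reached 0.61. Ptgs1 lies at chr2:36230426-36252272 on the plus strand (GRCm38) and had 96 to 646 reads per mouse. Gm43621, on the opposite strand, shares 148 bases of its exons, and the strand setting of the read counting is not given in the sources used here.

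The promoters of Ptgs1 and Fpr2 are shown because these genes differed together in the same groups. Each run is the 250 bases before the RefSeq start (GRCm38.p6, plus strand, chr2:36230176-36230425 and chr17:17887574-17887823), with the letters GAGGAA or their reverse complement TTCCTC in capitals, the core that the myeloid factor PU.1 is known to prefer.
Ptgs1: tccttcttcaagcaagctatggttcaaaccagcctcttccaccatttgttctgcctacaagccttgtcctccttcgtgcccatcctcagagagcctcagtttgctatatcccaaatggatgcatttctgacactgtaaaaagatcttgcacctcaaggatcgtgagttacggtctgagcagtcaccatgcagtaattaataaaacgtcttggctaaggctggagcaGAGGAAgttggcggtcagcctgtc
Fpr2: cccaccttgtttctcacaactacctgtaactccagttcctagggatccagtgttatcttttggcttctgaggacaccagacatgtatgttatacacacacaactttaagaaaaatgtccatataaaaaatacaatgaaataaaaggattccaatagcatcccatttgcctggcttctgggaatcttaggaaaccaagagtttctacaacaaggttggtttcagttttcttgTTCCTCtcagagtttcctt
Both strands were searched for 7 motifs with results already known. These were the core GAGGAA, a shifted form with the letters AGGAAGT, the joined form of both (GAGGAAGT), the DR1 repeat known for PPARs, the C/EBP palindrome TTGCGCAA, the AP-1 letters TGACTCA and a simple TATA box TATAAA, and the first 3 overlap. The core was found in 7 of the 8 members with a promoter in the RefSeq table. These 7 include Hpgd, so the core was not particular to Ptgs1 and Fpr2. Of 32851 mouse promoters, 23.3% held the core. The shifted form was found in Ptgs1 and Ltc4s (7.69% of all promoters), the joined form in Ptgs1 (2.44%) and the TATA box letters in Fpr2 (12.4%). The C/EBP palindrome was found in Ptgs2 (0.164%), and the AP-1 letters (4.46%) and the DR1 repeat (0.0335%) in none of the 8. A match describes these letters only.

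The marker counts below stand beside 16.3% of all genes called in KO lean vs WT lean livers (8% higher). In KO obese vs KO lean livers that share was 24.1% (12.1% lower). Groups did not overlap for 0.744% of genes in lean livers, a share not given here for KO mice by diet. Kupffer cell markers differed in the same comparisons as Ptgs1 and Fpr2. Of 10 markers 9 were listed, and all 9 were higher in KO lean than WT lean livers (median log2 difference 0.98, against 0.00 over all genes tested). Their summed normalized counts ran from 10223 to 21485 in KO lean and from 4455 to 9302 in WT lean mice, without overlap. In KO obese vs KO lean livers 8 of 9 were lower (median -0.90), with sums of 6251 to 8710 against 11266 to 23695, again without overlap. None was called between WT obese and WT lean livers, where the sums overlapped (5053 to 8020 and 4274 to 8943). No Kupffer marker was at 0 in any mouse. With the identifier block 0 of 9 was called between the lean genotypes and 7 of 9 in KO mice by diet. Monocyte markers were higher in KO lean livers for 3 of 3 tested (Ccr2, Plac8 and Ms4a6c), and their sums did not overlap (307 to 439 in KO and 141 to 292 in WT). With the identifier block 1 of these 3 stayed called. Of 5 lymphocyte markers tested 2 were higher in KO lean livers, and 5 of 8 were lower in KO obese than KO lean livers, as were 4 of 8 sinusoidal endothelial markers. With the block, 0 of these 2 lymphocyte calls stayed in lean livers, 1 of 5 in KO mice by diet, and 0 of the 4 endothelial calls. Neutrophils carry Fpr2 and Alox5 transcripts in blood, and their markers gave no call in any of the 6 comparisons, with sums of 104 to 303 in KO lean and 63.4 to 394 in WT lean livers (4 of 10 listed). The levels were not steady, as KO obese livers had sums of 91.2 to 1237 against 128 to 360 in KO lean livers. The median log2 difference of these markers ran from -1.64 (KO obese+RvE1 vs KO obese) to 1.60 (KO obese vs WT obese). Of the other lists, stellate and fibroblast markers had 2 of 7 lower in KO lean livers and 1 of 7 lower in KO obese livers, cholangiocyte markers 1 of 5 lower in KO lean livers, and monocyte markers 1 of 5 higher and 1 of 5 lower in KO obese livers. With the block the stellate and cholangiocyte calls were lost and 1 of the 2 monocyte calls stayed. Platelet, mast cell and basophil, adipocyte and erythroid markers gave no call. The part of these cells in the Ptgs1 and Fpr2 differences was not tested. In whole liver, fewer cells of a type and less RNA per cell cannot be told apart.

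**Figure D3:**
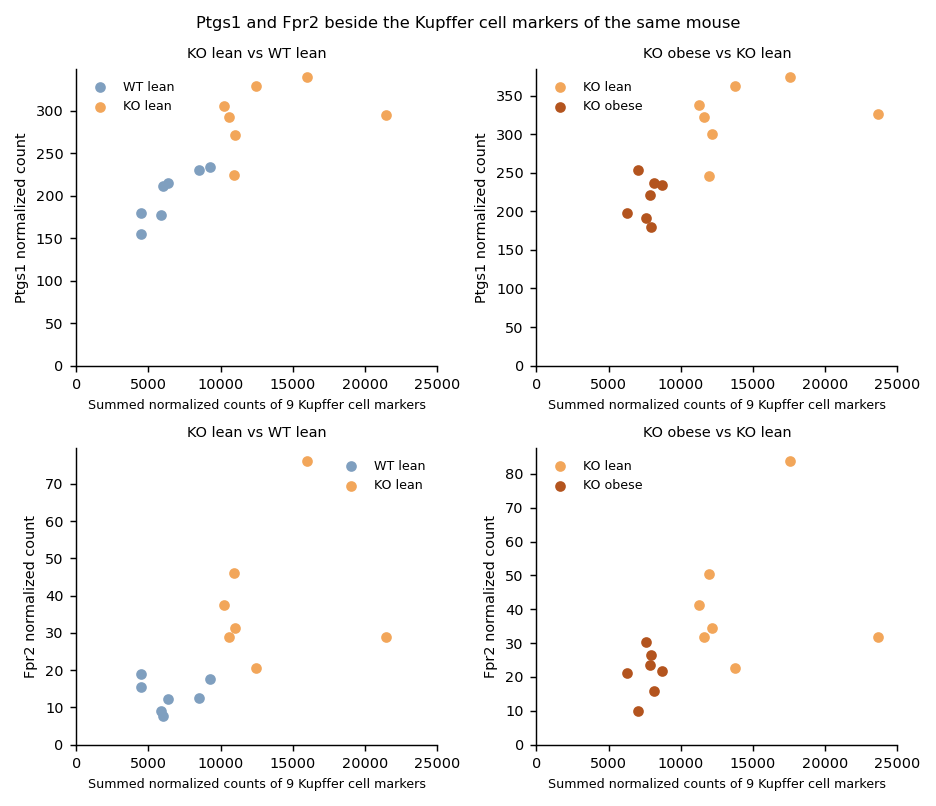
Normalized counts of Ptgs1 (top) and Fpr2 (bottom) against the summed normalized counts of 9 Kupffer cell markers in the same mouse, for the lean KO and WT mice (left) and the KO mice of both diets (right). KO lean mice sit to the right of both other groups and mostly above them; within KO lean mice Ptgs1 and Fpr2 show little order (r = 0.35 and 0.12).

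The genes with the most similar pattern were read for the 6 members with a mean of at least 20 normalized counts in all tables, which left out Fpr2. Among 12742 genes that passed the filter in all tables, the pair with the highest mean Pearson r to Ptgs1 across the 6 tables of 14 mice was Cd5l (0.83, from 0.73 to 0.90) and Cd84 (0.81, from 0.73 to 0.89). Cd5l is itself one of the Kupffer cell markers used here and is secreted by macrophages. Most mice enter several tables, so the 6 values of r share libraries. Within single groups of 7 mice, Ptgs1 against the summed Kupffer markers gave r = 0.88 (WT lean), 0.83 (WT obese) and 0.93 (WT obese+RvE1) for the WT groups. For the KO groups r was 0.35 (lean), 0.20 (obese) and 0.84 (obese+RvE1), all given as a description. For Fpr2 the values ran from -0.071 in WT lean to 0.89 in WT obese+RvE1 livers. For Hpgd they ran from -0.45 in KO obese to 0.47 in KO obese+RvE1 livers. A difference in r between these genes was not tested.

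Hpgd was the single member called for the high fat diet in WT mice, where 6.27% of 14012 genes were called (3.65% higher). WT lean livers had 1711 to 2301 normalized counts (median 2156) and WT obese livers 2194 to 4106 (median 3329). Only 1 WT obese mouse lay within the WT lean range, and the obese mice were spread more widely (SD 706 against 217). The log2 difference was 0.56 ± 0.14 (SE), or 1.47-fold (adjusted p = 0.034). It was not called with the identifier block (adjusted p = 0.17, the highest over 10 alternatives, lowest 0.0025), nor without the mice of number 21 or of number 6 (up to 0.18). In KO mice Hpgd was 2057 to 5292 (median 2632) in lean and 2423 to 4737 (median 3766) in obese livers. These groups overlapped throughout and the log2 difference of 0.28 ± 0.19 (SE) was not called (adjusted p = 0.34). The KO lean mouse at 5292 stood far above the next at 3352, and without it the difference was 0.42 ± 0.15 and called (adjusted p = 0.084), as it was without all 3 mice of its number, 20 (0.095); over 10 other alternatives the adjusted p ran from 0.13 to 0.51. The KO minus WT difference of the 2 diet effects was -0.28, with a 95% interval from -0.77 to 0.21. Lean KO and WT livers overlapped as well (adjusted p = 0.32). The genes most like Hpgd across mice were Akr1c20, an aldo-keto reductase (mean r 0.82), and Cd59b (0.79). Hpgd lies at chr8:56294585-56321043 on the plus strand (GRCm38).

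Ephx2 did not pass the test in any comparison. In KO livers it ran from 9726 to 15453 normalized counts in lean and from 7284 to 14381 in obese mice, with 3 of 7 obese mice below every lean one. Those 3 mice share identifier number 10 and had 7284 to 8662, whereas the other 4 KO obese mice had 10516 to 14381. This split was picked out after the values were seen, and the share of all genes that part in this way was not counted. The log2 difference was -0.30 ± 0.16 (SE, adjusted p = 0.22). It was called in 1 of 10 alternatives, when libraries were weighted (adjusted p = 0.013), and was -0.02 without the mice of number 10. In WT mice Ephx2 was 8427 to 12397 in lean and 7358 to 11115 in obese livers (adjusted p = 0.52). Its pattern was most like Hspa9 and Rab9 (mean r 0.78 each).

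Ltb4r1, the other RvE1 receptor gene, did not pass the test in any of the 6 comparisons, and its log2 difference of largest size was -0.34, between the lean genotypes. In lean livers it had 16.9 to 49.4 normalized counts in WT and 16.4 to 37.8 in KO mice, with an interval of the log2 difference from -0.92 to 0.24. In obese livers 23.3 to 56.6 in WT and 10.1 to 32.2 in KO mice gave an interval from -0.88 to 0.21. The estimate was below 0 in both, but these intervals reach from a fall of nearly 1 on the log2 scale to a small rise, at 8 to 54 reads per mouse. Its pattern was most like Impdh2 (mean r 0.63) and Nucb2 (0.57).

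The 5-lipoxygenase arm gave no call. Alox5ap, which encodes FLAP, ranged over 12.4 to 40.6 normalized counts in WT obese and 17.4 to 33.9 in WT lean livers, and over 14.5 to 47.6 and 17.8 to 43.0 in the KO pair. Lta4h was at 194 ± 12.6 (SD, n = 7) in KO lean and 212 ± 34.8 in WT lean livers. In obese livers Lta4h was 201 to 232 in KO and 210 to 294 in WT mice, with a log2 difference of -0.20 ± 0.09 (SE, unadjusted p = 0.051, adjusted p = 1.00). Ltc4s, which joins leukotriene A4 to glutathione, had 2 to 24 reads per mouse, and its widest interval, in lean livers, ran from -0.76 to 1.20. Antisense genes share 189 bases with the exons of Alox5ap and 268 bases with those of Ltc4s. Alox5ap was most like Cotl1 (mean r 0.68) and Pdk4 (0.60), and Lta4h most like Tmem8b (0.67) and Exosc7 (0.66).

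Alox5 and Ptgs2 were at the limit of detection. Alox5 had 0 to 14 reads per mouse in 35 mice. It was not listed in the lean genotype table or the WT RvE1 table, and was below the mean of 5 in 2 others. Put on the scale of the lean genotype table it would have had a mean of 4.82, under the lowest mean listed there (9.09). In KO livers Alox5 was tested, at 6.26 ± 3.40 in obese and 5.16 ± 1.57 in lean mice (SD, n = 7, adjusted p = 0.81). Ptgs2 appeared in the KO obese vs WT obese table only, with 13 reads in 6 of 7 KO obese mice and 2 reads in 2 of 7 WT obese mice. It failed the filter and no fold is given. Without the filter its unadjusted p was 0.0083 and its adjusted p 1.00.

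**Figure D4:**
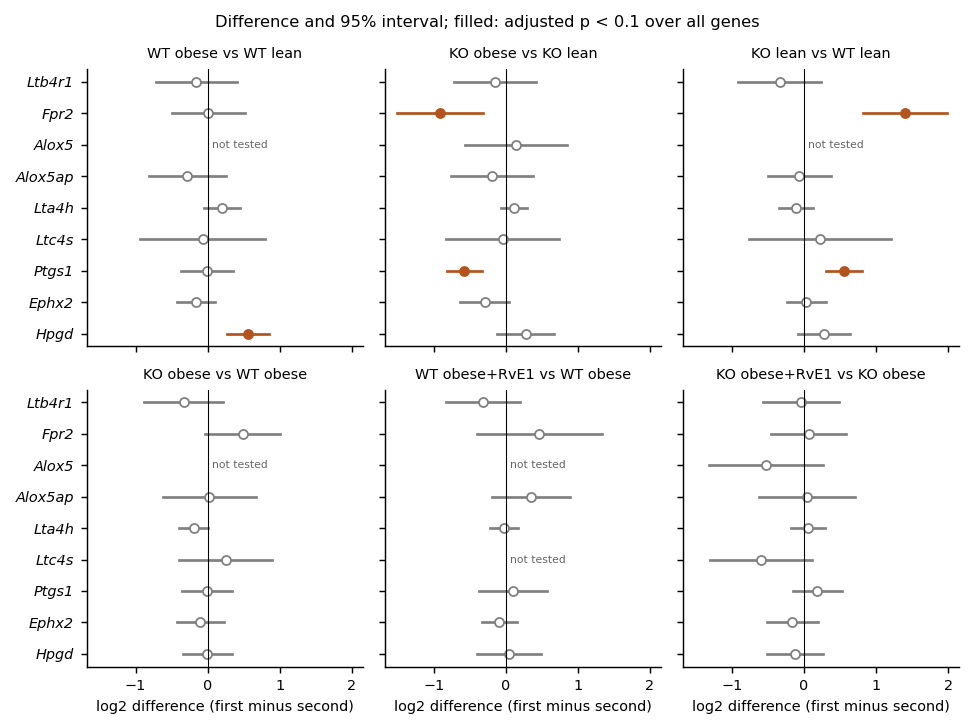
Log2 difference with its 95% interval for 9 members in the 6 comparisons, as the first group minus the second. Filled orange points passed an adjusted p of 0.1 (Hpgd in WT mice by diet; Fpr2 and Ptgs1 in KO mice by diet and between lean genotypes), open grey points did not, and Ptgs2 was not tested anywhere.

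By comparison, 1 of 8 members tested was called in WT obese vs WT lean livers, where 6.27% of all genes were. In KO obese vs KO lean livers it was 2 of 9, near the background of 24.1% of 14213 genes (12.1% lower). In KO lean vs WT lean livers it was 2 of 8 against 16.3% of 13031 genes (8% higher). With so few members these shares do not set the list apart from other genes. Between the obese genotypes 0 of 8 was called by limma, against 0.0141% of 14162 genes. None of the members had an unadjusted p under 0.05 (2.25% of all genes), while edgeR gave that for Lta4h and Fpr2 and DESeq2 for Lta4h, with 0 called by either. Fpr2 was 9.62 to 29.5 normalized counts in KO obese and 8.65 to 18.4 in WT obese livers, with 5 of 7 KO mice above every WT mouse and a log2 difference of 0.48 ± 0.25 (SE). Scaling to equal totals moved the median of all genes from 0.00 to 0.14 in the KO diet comparison and to -0.12 in the lean genotype comparison. Calls then numbered 2555 higher and 628 lower in place of 1704 and 1718 for KO diet, 392 and 1753 in place of 1042 and 1081 for lean genotype, and 349 and 161 in place of 512 and 366 for WT diet. The called differences of Ptgs1, Fpr2 and Hpgd kept their direction under both scalings.

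RvE1 gave no call among the members by limma, edgeR or DESeq2, with 0 of 7 tested in WT and 0 of 9 in KO mice and none at an unadjusted p under 0.05. Over all genes limma called 0% in both. Genes with an unadjusted p under 0.05 numbered 795 in WT mice (6.08%) and 1179 in KO mice (8.3%). Over all genes edgeR called 1 and 0 and DESeq2 25 and 17. Ltb4r1 went from 24.9 to 60.2 normalized counts (median 27.5) with vehicle to 14.1 to 37.1 (median 25.4) with RvE1 in WT mice, and the interval of the log2 difference was -0.83 to 0.20. For Hpgd the interval was -0.41 to 0.48 in WT and -0.51 to 0.26 in KO mice. Ptgs1 gave -0.38 to 0.57 in WT and -0.16 to 0.53 in KO mice. The widest difference among the tested members was that of Ltc4s in KO mice, at -0.60 ± 0.34 (log2, SE, adjusted p = 0.61). The KO minus WT difference of the RvE1 effects was tested for 7 members and none was called (0% of 13061 genes, adjusted p = 1.00 for each).

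RvE1-treated WT mice were far from uniform. For 2 members, chosen here after their values were seen, the mice parted by the number that opens the mouse identifier. The labels do not give the meaning of this number. The share of all genes that part in this way was not counted, so the split cannot be called particular to these members. Fpr2 was 6.58 to 14.3 normalized counts in the 3 mice of number 30 and 20.8 to 77.4 in the 4 mice of number 7, compared with 9.24 to 19.6 in all WT obese vehicle mice. Hpgd was the reverse, at 4816 to 6035 in number 30 and 2416 to 3515 in number 7. Ptgs1 (133 to 224 in number 30 and 218 to 392 in number 7) and Ephx2 (10515 to 13704 and 9362 to 10615) overlapped between the numbers. As no number was shared by WT vehicle and WT RvE1 mice, number and treatment cannot be told apart there. The diet and genotype comparisons have the same limit, as no number was shared by both groups in any of them. Only number 23 was shared between groups, by KO obese and KO obese+RvE1 mice. Summed Kupffer markers in the WT obese+RvE1 mice ran from 5125 to 15250, wider than the 5928 to 9409 of WT obese mice.

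**Figure D5:**
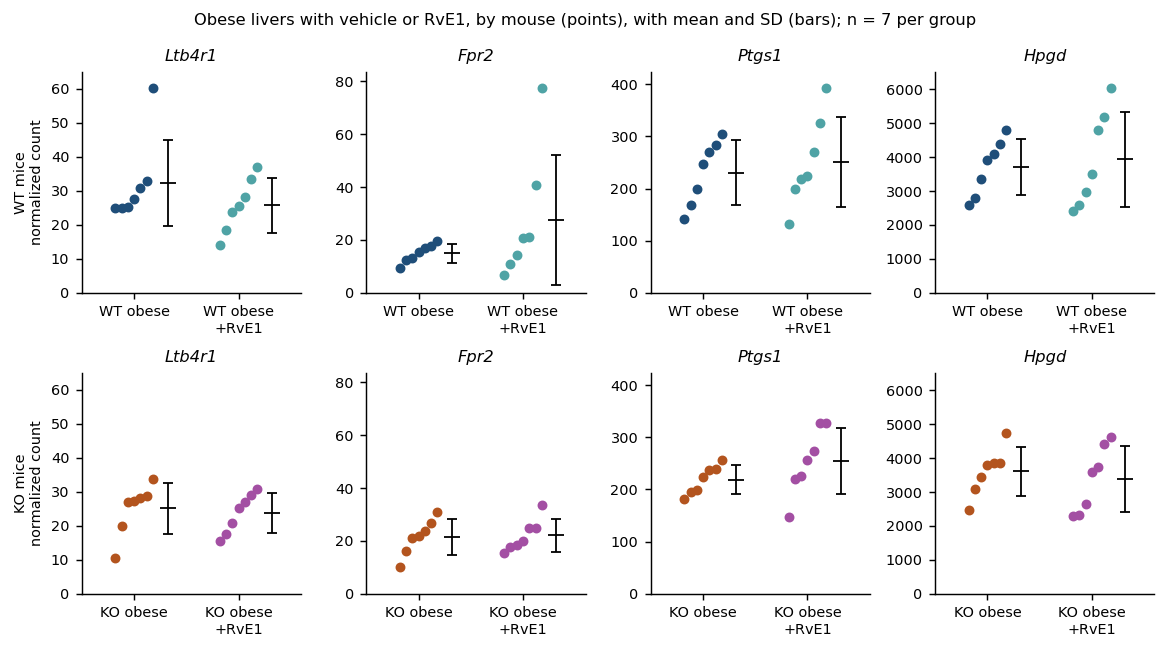
Normalized counts of Ltb4r1, Fpr2, Ptgs1 and Hpgd in obese WT (top) and KO (bottom) livers with vehicle or RvE1, 1 point per mouse with the mean and SD beside each group of 7. The groups overlap in every panel, and Fpr2 in WT obese+RvE1 mice spreads from 6.58 to 77.4.

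The wider pathway was read from a list of 77 further genes of lipid mediator release, synthesis, breakdown, transport and reception. On the high fat diet 4 of 59 tested genes were higher and 4 lower in WT livers (median of the list -0.02), and 4 of 61 higher and 11 lower in KO livers (median -0.13). These are 13.6% and 24.6% of the genes tested, beside 6.27% and 24.1% of all genes. With the identifier block 3 of the 8 calls stayed in WT and 6 of the 15 in KO livers. Most of these were P450 genes: of 17 such genes tested in each genotype, 2 were higher and 3 lower in WT, and 3 higher and 5 lower in KO mice. Cyp4a genes encode enzymes that hydroxylate fatty acids such as arachidonic acid at the tail end. Cyp4a12b was lower by diet in both genotypes, from 1669 ± 400 (SD, n = 7) to 490 ± 203 normalized counts in WT and from 1486 ± 413 to 458 ± 277 in KO livers (log2 differences -1.88 and -1.96, adjusted p = 0.0017 and 0.0060). Cyp4a10 was lower in both as well (-1.60 and -1.48, adjusted p = 0.053 and 0.025). Cyp2c genes encode epoxygenases. Cyp2c37 was higher by diet, from 3437 ± 1404 to 6222 ± 1834 in WT and from 3058 ± 1352 to 8113 ± 1727 in KO livers (0.93 and 1.49, adjusted p = 0.077 and 0.0026), and Cyp2c50 by 0.64 and 0.88 (adjusted p = 0.079 and 0.013). Cyp4a12a with Cyp4a12b, and Cyp2c37 with Cyp2c50, are close copies whose reads may have been split between them, so the share of each is uncertain.

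Ephx1, the microsomal partner of Ephx2, was higher on the high fat diet in both genotypes, from 1895 ± 301 to 3047 ± 468 normalized counts in WT and from 2327 ± 400 to 4172 ± 1234 in KO livers (log2 differences 0.69 and 0.79, adjusted p = 0.0053 and 0.018, and 0.032 and 0.094 with the block). In WT mice the groups did not overlap, as held for 1.36% of genes. Slco2a1, the prostaglandin transporter, was lower in WT obese livers (-0.64, adjusted p = 0.081) and Pla2g15, a lysosomal phospholipase, higher (0.45, adjusted p = 0.069). With the block, the WT calls of Cyp2c37, Cyp2c50, Cyp4a10, Slco2a1 and Pla2g15 were lost (adjusted p from 0.12 to 0.25). In KO livers 3 of 12 receptor genes were lower: Tbxa2r, the thromboxane receptor, fell from 40.2 ± 13.9 to 18.0 ± 7.35 (log2 difference -1.14, adjusted p = 0.014, and 0.067 with the block), Ptger2, a prostaglandin E2 receptor, from 58.5 ± 9.55 to 40.5 ± 6.93 (-0.52, adjusted p = 0.035, and 0.13 with the block), and Fpr1 was the other (-0.49, adjusted p = 0.053, and 0.16 with the block).

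In lean livers 6 of 53 tested pathway genes were higher in KO than in WT mice and 1, Cmklr1, lower, or 13.2% in all, beside 16.3% of all genes (8% higher). Pla2g4a, the cytosolic phospholipase A2 that releases arachidonic acid, was higher by 1.11 ± 0.27 (log2, SE, adjusted p = 0.039), at a mean of 30.4 normalized counts in KO livers. Ptges2, a prostaglandin E synthase, was 614 ± 151 (SD, n = 7) in KO and 364 ± 43.1 in WT livers (0.73, adjusted p = 0.031). Mgst1, a microsomal glutathione transferase, differed by 0.88 (adjusted p = 0.040), and Fpr1, a formyl peptide receptor of phagocytes like Fpr2, by 0.79, at 64.2 ± 16.2 and 37.3 ± 12.2 (adjusted p = 0.044). Pla2g7 and Cysltr1 were the other 2 higher genes. With the identifier block none of these 6 was called (adjusted p from 0.14 to 0.18), while Cmklr1 still was (0.0018). Among all 13031 genes 3 were called with the block, in place of 2123. Between the obese genotypes Cmklr1 was the single pathway gene called, and RvE1 gave no call among 54 genes in WT and 61 in KO mice.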

How the data were processed

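Whole livers of 42 mice (6 groups of 7) were profiled by total RNA sequencing. The authors aligned paired reads to mm10 with Bowtie2, counted pairs with both ends mapped per gene with featureCounts, and normalized with DESeq2 separately for each comparison. Versions, annotation and the strand option were not given in the sources used here. The deposited tables hold normalized counts per mouse (unit: signal, reads divided by a size factor), and also the log2 fold changes, standard errors and p-values of the authors' own DESeq2 tests, which were not used. All values came back to whole reads (within 0.1 of a read), and the reads of a mouse were the same in every table.

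Groups came from the sample labels. For genes with a mean of at least 5, limma 3.58.1 was run on log2(normalized count + 1) (trend, two-sided, R 4.3.3), with Benjamini-Hochberg adjustment over all genes tested and a threshold of 0.1. Interactions joined the 2 tables concerned by gene, with each difference formed within its own table. Alternatives were pseudocounts of 0.5 and 4, no filter or a mean of at least 20, TMM or equal-total scaling of recovered reads, the identifier number as a random block, library weights, edgeR 4.0.16 and DESeq2 1.42.0 on recovered reads, an adjusted p under 0.05, a fold above 1.5, and each mouse left out. Leaving out each identifier number was added after seeing the data. Gene positions and exon lengths were from GENCODE M21 and promoters from RefSeq (both GRCm38). The members, the pathway list and the marker lists were chosen with earlier results of these data known. Genes named from the pathway list were at most 4 higher and 4 lower per comparison by adjusted p; Cysltr1 and Pla2g7 were named after their values were seen, as was Fpr1 in KO mice by diet. Scripts were tested on simulated counts. Nothing in the labels says that mice of a group were raised independently, whereas the p-values of the fit reported treat the 7 mice of a group as independent.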

Additional observations from a re-analysis of the deposited data

Results flagged for a closer look

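Of 52 sets of 7 mice (each member but Ptgs2 in each group, read from the diet tables for vehicle groups and the RvE1 tables for RvE1 groups, where listed), 4 had a highest or lowest mouse whose gap to the next, on the log2 scale, was over 0.568 of the range, against 2.6 that chance gives. Ltb4r1 was 51.3 normalized counts in 1 WT obese mouse (27-2L), with the next at 27.8 (gap 0.70 of the range). Alox5ap was 9.47 in 1 KO obese+RvE1 mouse (15R), with the next at 20.2 (0.57). Lta4h was 210 in 1 KO obese mouse (31L), with the next at 226 (0.60). Ephx2 was 13704 in 1 WT obese+RvE1 mouse (30R), with the next at 10954 (0.59). None of these members was called in a comparison that holds the mouse.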

How the results depend on the processing

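Counts of members called moved by over 1.5 times under few settings. When mice of 1 identifier number were blocked, the count was 0 in place of 1 for WT diet, 1 in place of 2 for KO diet (Ptgs1) and 0 in place of 2 for lean genotype. At equal totals it was 1 for KO diet (Ptgs1) and 1 for lean genotype (Fpr2). A fold above 1.5 left 0 for WT diet, 1 for KO diet and 1 for lean genotype (Fpr2 in both). The diet by genotype interaction had 0 in the fit reported, 2 with library weights (Fpr2 and Ptgs1) and 1 with DESeq2 (Ptgs1). The cause was not tested. With 1 mouse left out, the counts ran from 1 to 1 for WT diet, 2 to 3 for KO diet, 2 to 2 for lean genotype and 0 to 0 for obese genotype and both RvE1 comparisons. With 1 identifier number left out they ran from 0 to 1, 1 to 3 and 0 to 2 for WT diet, KO diet and lean genotype; such fits also hold fewer mice. The higher KO diet count came with Hpgd, called without KO lean replicate 3 or number 20, and with Ephx2 under library weights. No called difference changed sign under any setting run. Among members and comparisons without a call, 28 of 540 values changed sign under settings that kept every mouse. Identifier numbers mark no stated animal pairing, and no paired analysis was possible because replicate numbers were given in accession order and pair no mice. Depth limits Alox5, Ptgs2 and Ltc4s, at medians of 4, 1 and 8 reads per mouse.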
